A study of Mus musculus with 9 samples.

Results

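The resting wild-type (WT) macrophage was described from the 3 libraries of untreated WT cells among 9 libraries in all, with 56775 genes ranked by their mean deposited log2 value. The libraries came from bone marrow of C57BL/6 mice, cultured for 7 days with 15% L-929 supernatant in the medium and harvested at 0 h, before any oxidized low-density lipoprotein (ox-LDL). L-929 is a fibroblast line whose supernatant is the usual source of the growth factor CSF1 for such cultures. The other groups were WT cells given 20 µg/mL ox-LDL for 24 h and MKP5-/- cells given the same, with 3 libraries each, all from 1 µg of total RNA. Neither untreated MKP5-/- cells nor a 24 h WT culture lacking ox-LDL was analysed here, so the 24 h values below join ox-LDL with time. Whether the 3 libraries of a group came from separate mice is not stated in the labels, and the spread between them may be technical.

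Macrophages are phagocytes. They engulf particles and dying cells through surface receptors, break the cargo down in lysosomes with cathepsins and other hydrolases, store the iron this frees in ferritin, and present peptides on MHC molecules. In bone marrow culture, CSF1 acting through its receptor Csf1r drives progenitors and monocytes into this fate, and the transcription factor PU.1, encoded by Spi1, is required for it. The deposited values are log2 normalized counts scaled by gene length, per the file headers, and levels are given as TPM, a transcript abundance that sums to the same total in each library, computed here from the reads recovered from them. TPM divides the reads of each gene by its exon length and then by the library's total, so that genes can be set against each other.

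The WT 0 h libraries held 15664606, 17118744 and 16110346 recovered reads. In these libraries 12847 genes were at 1 TPM or more in all 3, and 10922 of those were protein-coding, which is 50.4% of 21683 coding genes. A mean of 100 TPM or more was reached by 1804 genes and a mean of 1000 TPM or more by 109. The 10 most abundant genes held 10.98% ± 0.126 (SD, n = 3) of all TPM and the 100 most abundant held 29.8%. All 13 mitochondrial mRNAs had 0 reads in the deposited values, so under their own names they add nothing to the ranking or these shares. Included, however, are 7 pseudogenes that match some of them, described below, which held 2.69% of all TPM. The curve of abundance by rank plots this fall. Only the ranks down to 8618 order genes by expression. Rank 8619 was held by Ighd5-4, a diversity segment of 10 bases with no read in any of the 3 libraries, because the deposited values carry an added 0.5 reads that weighs heavily on a very short gene. Below it stood 14205 genes that did have reads, and 4229 of them were at 1 TPM or more in all 3 libraries. For genes past that point the TPM is given here and the rank is not.

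**Figure D1:**
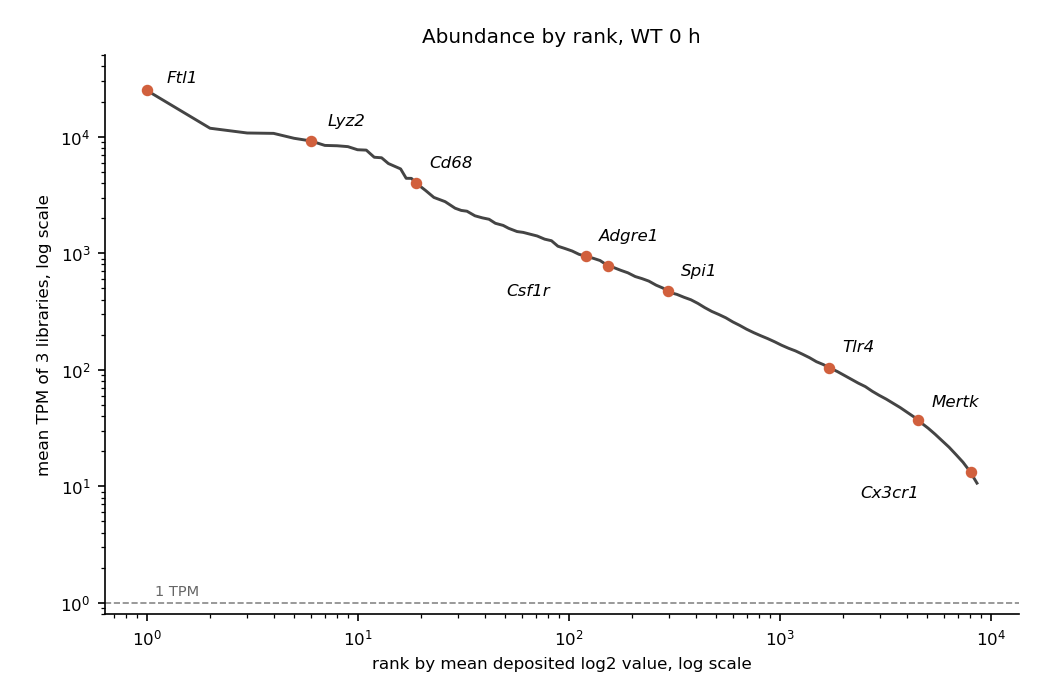
Mean TPM of the 3 WT 0 h libraries (log scale) against the rank of the gene by its mean deposited log2 value (log scale), down to rank 8618. The orange points are named genes, from Ftl1 at 25015 TPM through Csf1r at 778 TPM to Cx3cr1 at 13.3 TPM, and the dashed line marks 1 TPM.

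Iron storage and the lysosome led the ranking. Ftl1, the light chain of ferritin, was first at 25052, 25139 and 24854 TPM in libraries 1, 2 and 3. That was more than any other gene with counted reads in each of them. Fth1, the heavy chain with the ferroxidase site, had rank 4 at 10614, 10665 and 10736 TPM. The pair held 3.57% ± 0.0109 of all TPM. Psap, whose product prosaposin is cut into activators of lysosomal lipid hydrolases, ranked second at 11769, 11908 and 11748 TPM. The cathepsins Ctsd, an aspartic protease, and Ctsb, a cysteine protease, averaged 8354 ± 99.9 and 7722 ± 22.9 TPM. Ctss, which trims the invariant chain of MHC class II, and Ctsz followed at 3010 ± 166 and 2314 ± 52.3 TPM. All 25 listed lysosomal hydrolases and membrane proteins were at 10 TPM or more in every library, 7 of them at 1000 TPM or more, and the lowest was the calcium channel Mcoln1 at 38.2 ± 1.81 TPM. Among 18 cathepsins and cystatins, by contrast, the osteoclast protease Ctsk was at 5.08 ± 1.09 TPM, Ctsw at 0.188 ± 0.0641 TPM, and Csta1 had no read.

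Spp1, which encodes the secreted adhesion protein osteopontin, had rank 3 and was the least steady of the leading genes. Its libraries were at 11703, 9356 and 11192 TPM, with library 2 the lowest, so that it overlapped Fth1 and stood below it in that library. B2m, the light chain shared by MHC class I molecules, was at 9546, 9706 and 9804 TPM, and the class I heavy chains H2-D1 and H2-K1 averaged 4393 ± 96.9 and 2204 ± 38.9 TPM. The class II genes were far lower: H2-Eb1 was at 42.8 ± 2.77 TPM, H2-Ab1 at 41.3 ± 1.28, H2-Aa at 23.0 ± 0.510, and their transactivator Ciita at 1.31 ± 0.0404. The invariant chain Cd74 was at 193 ± 3.50 TPM. MHC genes resemble each other closely, so their split of reads is uncertain.

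Other members of the leading 30 coding genes had varied roles. Actb and Actg1, the cytoplasmic actins, averaged 8411 ± 171 and 2769 ± 18.9 TPM, and the actin-sequestering peptide Tmsb4x averaged 4386 ± 133. Of 27 listed genes of the actin cytoskeleton, 24 were at 100 TPM or more in every library, while the muscle actins Acta1, Acta2 and Actc1 were at 7.52, 1.27 and 0 TPM. Translation was represented by the elongation factors Eef1a1 (7664 ± 82.3 TPM) and Eef2 (2432 ± 46.6 TPM) and by the ribosomal proteins, of which 79 of 82 were at 100 TPM or more and which together held 5.32% ± 0.0844 of all TPM. The galectins Lgals3 and Lgals1, secreted lectins, were at 6658 ± 57.7 and 3312 ± 95.9 TPM. C1qb, a chain of the first complement component, was at 3619 ± 118 TPM, and Mpeg1, which encodes the pore-forming protein perforin-2, was at 2924 ± 44.1 TPM. Ifitm3 and Bst2, membrane proteins that restrict viruses and are known as interferon-inducible, were at 5443 ± 27.9 and 2328 ± 71.2 TPM. The list was completed by the progranulin gene Grn at 3455 ± 61.3, polyubiquitin Ubb at 2533 ± 38.4, Tpt1 at 2477 ± 32.4, the lysosomal membrane protein Lamp1 at 2378 ± 18.7, the transmembrane glycoprotein Gpnmb at 2292 ± 65.6 and the autophagy adaptor Sqstm1 at 2136 ± 113 TPM. Of the 29 pairs of neighbours in this order, 16 did not overlap between libraries and 13 did, and 18 pairs stood in the same order in all 3 libraries.

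**Figure D2:**
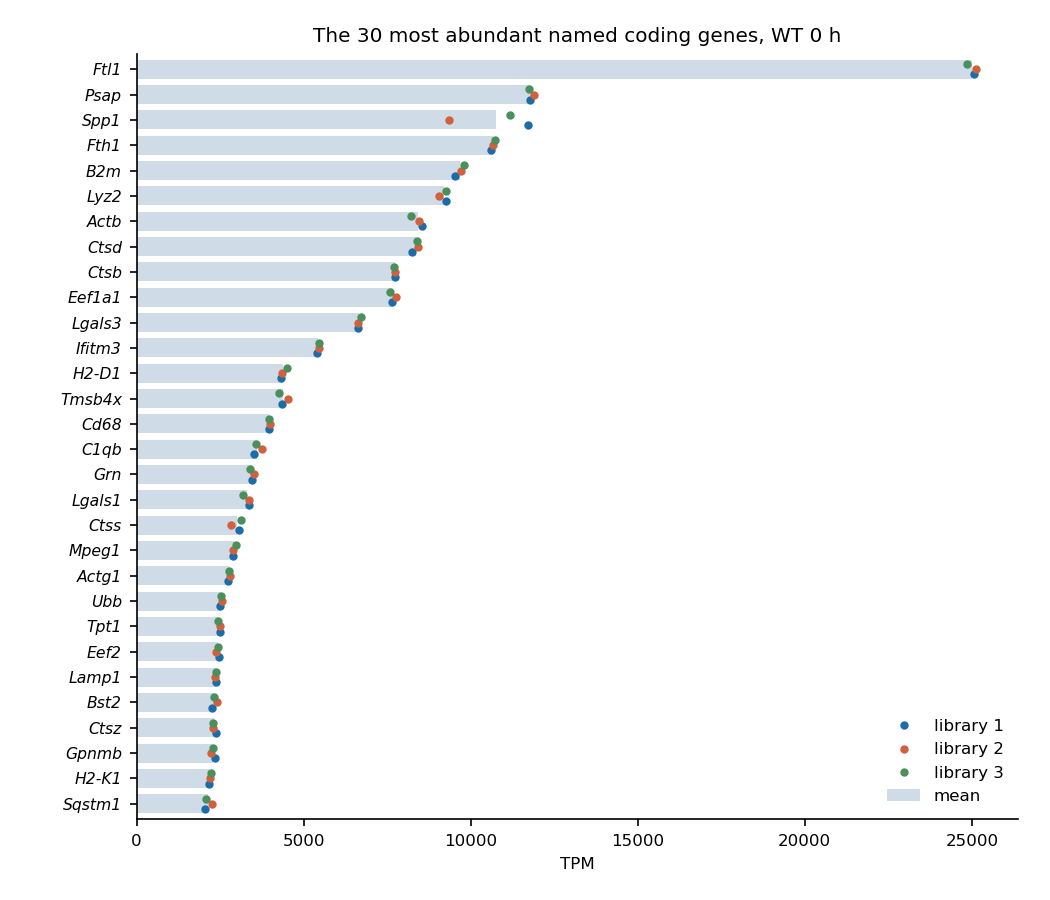
TPM of the 30 most abundant named coding genes at WT 0 h, with bars for the mean and points for libraries 1, 2 and 3; ribosomal proteins and predicted genes are left out. The points of a gene lie close together except for Spp1, whose libraries run from 9356 to 11703 TPM.

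Which length a gene is given matters for these positions. The deposited values follow the summed length of all annotated exons, and by reads alone the first gene was Ctsb, which has 6051 exon bases, followed by Fth1 with 3469. With the length of the principal transcript in its place, Fth1 rose from 10672 to 16761 TPM and to rank 2, Gapdh went from 1586 to 3122 TPM, and Ftl1 stayed first at 23422 TPM. Of the 100 most abundant genes, 78 were among the 100 under that length and 59 under a ranking by reads without length.

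The 4 genes chosen as markers of the cell type were all abundant, and the label of bone marrow macrophages held by them. Lyz2, the lysozyme of myeloid cells, ranked sixth at 9259, 9056 and 9256 TPM. Cd68, a heavily glycosylated protein of the late endosome, ranked 19 at 3975, 3989 and 3974 TPM. Adgre1, which encodes the antigen F4/80, ranked 121 at 920, 941 and 960 TPM, and the CSF1 receptor Csf1r ranked 154 at 800, 740 and 794 TPM. Lyz2 therefore stood about a factor of 10 above the receptor that maintains the cells, and none of these 4 overlapped another. Lyz1, the Paneth cell lysozyme whose transcript is 95.8% identical to that of Lyz2 over 1264 aligned bases, was at 1.47 ± 0.514 TPM, and reads of the pair may have been divided unevenly. All 20 listed macrophage markers were at 10 TPM or more in every library, with a median of 700 TPM over the list against 1.44 TPM over all coding genes. The lowest were the fractalkine receptor Cx3cr1 at 14.2, 10.02 and 15.5 TPM, the apoptotic-cell receptor kinase Mertk at 36.8 ± 2.36 TPM, and Ly6c2, an antigen of inflammatory monocytes, at 40.9 ± 2.09 TPM. Ccr2, the chemokine receptor by which monocytes leave the marrow, was at 180 ± 3.68 TPM.

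The promoters of the leading genes fell into different types of sequence, shown here by the 120 bases before the start of 3 genes that most cells use and 3 that mark myeloid cells. The bases are those of RefSeq on GRCm38.p6, written 5′ to 3′ on the gene's strand, with each CG dinucleotide in capitals.
Ftl1 (chr7:45459887-45460006, minus strand): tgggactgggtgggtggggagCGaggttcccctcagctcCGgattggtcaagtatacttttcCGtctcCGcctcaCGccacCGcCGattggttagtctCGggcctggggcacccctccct
Psap (chr10:60277508-60277627, plus strand): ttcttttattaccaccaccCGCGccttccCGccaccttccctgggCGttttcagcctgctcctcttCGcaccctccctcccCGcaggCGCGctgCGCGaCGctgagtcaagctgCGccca
Eef1a1 (chr9:78481725-78481844, minus strand): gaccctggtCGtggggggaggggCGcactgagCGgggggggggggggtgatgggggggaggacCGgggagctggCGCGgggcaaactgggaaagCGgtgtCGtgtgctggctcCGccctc
Lyz2 (chr10:117282273-117282392, minus strand): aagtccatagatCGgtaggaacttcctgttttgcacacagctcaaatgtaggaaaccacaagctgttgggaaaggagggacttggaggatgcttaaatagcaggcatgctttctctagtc
Cd68 (chr11:69666171-69666290, minus strand): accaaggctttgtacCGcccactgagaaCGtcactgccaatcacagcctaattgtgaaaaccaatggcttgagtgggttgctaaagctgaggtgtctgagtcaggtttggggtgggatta
Mpeg1 (chr19:12460650-12460769, plus strand): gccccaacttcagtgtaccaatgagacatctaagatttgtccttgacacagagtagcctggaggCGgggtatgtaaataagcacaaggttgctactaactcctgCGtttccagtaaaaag
The stretches of Ftl1, Psap and Eef1a1 held 8, 12 and 9 CG dinucleotides, and those of Lyz2, Cd68 and Mpeg1 held 1, 2 and 2. Over the 250 bases before the start, the ratio of observed to expected CG had a median of 0.589 for 79 of the 100 most abundant coding genes, 0.738 for the coding genes that follow down to rank 1000 and 0.775 for those after them down to rank 5000. It was 0.159 for 4498 coding genes with no read at WT 0 h and 0.557 for all 16749 coding genes with a promoter in the table. For 16 macrophage markers the median was 0.227, nearer to the silent genes than to the abundant ones, and for 22 myeloid transcription factors it was 0.803. These are descriptions of the sequences and carry no test.

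Short motifs were looked for on both strands of the same windows, except TATAAA, which was sought on the gene strand only near the start. Each gene was represented by the first start listed for it, here and for the CG ratios, and its other starts were not searched. TCACGTGA, the core of the element bound by the lysosomal regulator TFEB, was in 3 of the 20 lysosomal promoters in the table (15%), against 1.04% of all coding promoters. The 3 were those of the vacuolar proton pump subunit Atp6v1a, the galactosidase Gla and Mcoln1, and Ctsd among the cathepsins also held it. The stretches that hold it in Ctsd, Atp6v1a and Gla are printed with the motif in capitals.
Ctsd (chr7:142387828-142387947, minus strand): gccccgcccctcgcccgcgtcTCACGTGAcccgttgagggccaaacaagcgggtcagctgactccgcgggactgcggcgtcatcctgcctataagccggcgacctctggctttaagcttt
Atp6v1a (chr16:44139292-44139411, minus strand): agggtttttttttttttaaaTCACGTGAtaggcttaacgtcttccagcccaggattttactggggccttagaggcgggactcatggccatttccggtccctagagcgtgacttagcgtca
Gla (chrX:134601134-134601253, minus strand): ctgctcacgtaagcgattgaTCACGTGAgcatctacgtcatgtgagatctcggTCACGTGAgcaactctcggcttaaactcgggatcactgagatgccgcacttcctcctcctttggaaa
The pattern of GAAA, any 2 bases and GAAA, the core of the interferon-stimulated response element, was in 6 of the 79 promoters of the 100 most abundant coding genes (7.59%), against 3.07% of all. The share was 3.91% among coding genes with no read. The 6 were Spp1, B2m, Ctss, Lamp1, Bst2 and Rpl4, and B2m, Bst2 and Ctss are shown by 150 bases each, with the matches in capitals. Bst2 has 2 matches that overlap.
B2m (chr2:122147537-122147686, plus strand): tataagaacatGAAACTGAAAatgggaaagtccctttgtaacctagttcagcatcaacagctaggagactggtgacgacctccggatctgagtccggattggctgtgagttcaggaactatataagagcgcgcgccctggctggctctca
Bst2 (chr8:71537473-71537622, minus strand): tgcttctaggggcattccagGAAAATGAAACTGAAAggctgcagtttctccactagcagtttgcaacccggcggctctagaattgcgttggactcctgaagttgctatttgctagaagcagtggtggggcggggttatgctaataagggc
Ctss (chr3:95526636-95526785, plus strand): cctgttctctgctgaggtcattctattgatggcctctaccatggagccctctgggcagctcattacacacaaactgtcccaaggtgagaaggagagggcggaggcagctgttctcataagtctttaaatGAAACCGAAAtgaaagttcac
Other patterns were searched too, among them GAGGAAGT, in 2.53% of the 79 promoters of abundant genes and 2.17% of all. The small lists differed: it was in 6 of 13 promoters of neutrophil markers and 1 of 16 of macrophage markers. Among 22 promoters of myeloid transcription factors it was in 0. A match says only that these letters stand in the window.

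The transcription factors of the myeloid lineage were present throughout, at lower levels than the markers. All 28 on the list were at 1 TPM or more in every library, with a median of 62.3 TPM. Spi1 was the highest at 484, 460 and 478 TPM, in a range that no other listed factor reached. Below it came Klf6 at 338 ± 6.63 TPM, Irf5 at 282 ± 10.4, the CCAAT-binding factor Cebpb at 279 ± 14.6, Maf at 260 ± 12.9 and Stat6 at 241 ± 9.74. Irf5 and Cebpb were not separated by their spread. Irf8 was at 112 ± 5.06 TPM. The lowest listed factors were the oxysterol receptor Nr1h3 at 11.4 ± 0.675 TPM and Batf3, known from conventional dendritic cells, at 5.01 ± 1.53. Of 21 factors that specify other blood lineages, 5 were at 1 TPM or more in every library, and the median was 0.319 TPM. The highest were Tal1 at 12.96 ± 0.681 and Tcf4 at 11.7 ± 0.141 TPM, while the B cell factors Pax5 and Ebf1, the T cell factors Gata3 and Tcf7 and the neutrophil factor Gfi1 all had means under 0.5 TPM. Gata1, the factor of red cells and platelets, had no read, which at a floor of 3 reads over the 3 libraries allows up to 0.0873 TPM.

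Markers of other cells were mostly near the floor, with exceptions that differed in kind. In bulk RNA, fewer cells of a type and less RNA per cell cannot be told apart. All 13 neutrophil markers had reads: the calgranulins S100a9 and S100a8 were at 223 ± 12.6 and 87.5 ± 9.84 TPM, the granule protein Ngp at 106 ± 9.50 and lactoferrin Ltf at 24.2 ± 1.31. The primary granule enzymes Elane, Prtn3 and Mpo were at 9.10, 9.60 and 5.29 TPM, and Ly6g, the surface antigen used to sort neutrophils, was at 0.698 ± 0.618 TPM. Summed over the list, neutrophil markers came to 514, 526 and 547 TPM, within a narrow range. Among stem and progenitor genes Ly6a, which encodes the stem cell antigen Sca-1, was at 880 ± 40.6 TPM and Procr at 56.2 ± 3.87, but Kit was at 0.767 ± 0.0773, Flt3 at 0.457 ± 0.148 and Cd34 at 2.41 ± 0.615 TPM.

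Ighm, the heavy chain of IgM, was at 118, 125 and 112 TPM, while the other lymphocyte genes were low. The B cell receptor chain Cd79a was at 0.192 ± 0.0729 TPM, Cd79b at 13.3 ± 1.77 and the T cell receptor genes Cd3d, Cd3e and Cd3g at 0.111 TPM or less. Ncr1 and Gzma of natural killer and cytotoxic cells had no read. Pf4, which platelets store and macrophages also make, was at 411, 541 and 432 TPM while the other platelet genes Ppbp and Gp9 were at 0.578 and 0.0819 TPM and globin Hbb-bs at 6.55 ± 3.58. Dendritic cell markers had a median of 0.383 TPM, with the integrin Itgax the only member at 10 TPM or near it (8.15 ± 0.501). Collagens Col1a1, Col1a2 and Col3a1 all had means under 0.3 TPM. Mast cell, basophil and eosinophil genes had no member at 1 TPM or more in all libraries and 6 of 11 without a read, namely Mcpt8, Mcpt4, Tpsb2, Fcer1a, Epx and Il5ra.

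**Figure D3:**
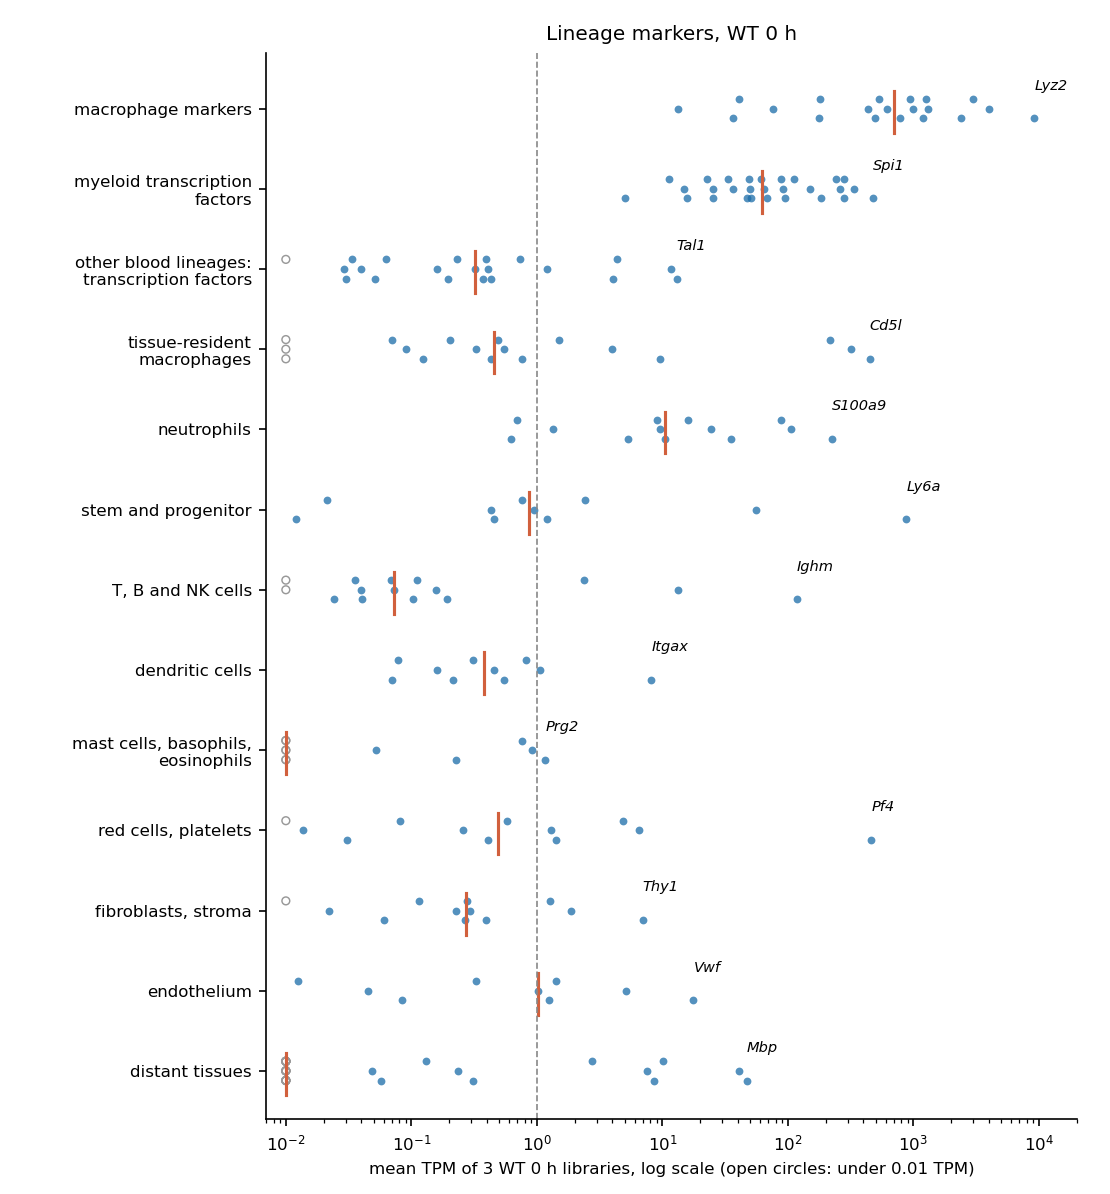
Mean TPM at WT 0 h (log scale) of each gene in 13 lists of lineage markers; orange bars mark list medians, open circles are genes under 0.01 TPM, and the highest gene of each list is named. Macrophage markers (median 700 TPM) and myeloid transcription factors (median 62.3 TPM) stand to the right of the dashed line at 1 TPM, and the other lists have medians from 0 to 10.5 TPM.

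Of 18 markers of macrophages that live in tissues, 6 were at 1 TPM or more in every library and 3 had no read. Cd5l, a secreted protein of tissue macrophages, was at 450 ± 7.31 TPM and the folate receptor Folr2 at 216 ± 15.0. The hemoglobin receptor Cd163 was at 3.98 ± 0.859 TPM, the microglial receptor P2ry12 at 9.66 ± 1.91 and Tmem119 at 1.503 ± 0.238. Gata6 of peritoneal macrophages, Timd4 and Clec4f of Kupffer cells had no read, and Spic, Vsig4, Lyve1, Vcam1, Marco and Siglecf had means under 1 TPM.

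Surface receptors differed in how evenly a family was used. Of 26 receptors for colony-stimulating factors and cytokines, 25 were at 1 TPM or more in all libraries, led by Csf1r at 778 ± 33.1 TPM, then the GM-CSF receptor chain Csf2ra at 278 ± 16.4, the TNF receptor Tnfrsf1a at 241 ± 4.92 and Il10rb at 177 ± 8.39. Il1r1, the signalling receptor for interleukin 1, was at 0.376 ± 0.243 TPM. Fc receptors, which bind antibody, were led by their shared signalling chain Fcer1g at 1805 ± 27.3 TPM. The low-affinity activating receptor Fcgr3 was at 611, 643 and 609 TPM and the high-affinity Fcgr1 at 493, 589 and 511, so the libraries did not overlap. Fcgr4 was at 256 ± 21.1 and the inhibitory Fcgr2b at 32.1 ± 4.09 TPM, far below the activating members, and the IgE receptor chain Fcer1a had no read.

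Toll-like receptors, which sense microbial molecules, ranged from 299 TPM to traces. Tlr13, which recognizes bacterial ribosomal RNA in mice, was the highest at 289, 308 and 302 TPM, above Tlr7, a sensor of single-stranded RNA, at 245, 238 and 260 TPM. The lipopolysaccharide receptor Tlr4 was at 104 ± 3.68 TPM and its co-receptor Cd14 at 986 ± 48.1, whereas Ly96, which encodes the partner MD-2, was at 19.6 ± 2.82. Tlr2 was at 60.1 ± 2.24, Tlr9 at 51.1 ± 2.22, Tlr3 at 30.1 ± 1.87 and the flagellin receptor Tlr5 at 5.36 ± 0.418 TPM. Tlr11 and Tlr12, which sense profilin of parasites, were at 0.111 and 0.135 TPM. Unc93b1, the chaperone that carries the nucleic-acid sensors to endosomes, was at 689 ± 7.71 TPM, more than any of the receptors it carries.

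Among receptors for lipoproteins and debris, Cd36, a receptor of ox-LDL, was at 1076, 1094 and 1058 TPM and ranked 98. The lipoprotein receptor Lrp1 was at 523 ± 38.0, Stab1 at 418 ± 4.65, the scavenger receptor Msr1 at 112 ± 1.48 and Scarb1 at 74.8 ± 2.26 TPM. In contrast, Olr1, an endothelial receptor of ox-LDL, was at 0.10 ± 0.0708 TPM and Marco at 0.762 ± 0.517. Receptors for dying cells centred on the adaptor Tyrobp (1310 ± 20.9 TPM) with Trem2 at 335 ± 8.01, and on Gas6, the bridging ligand, at 1155 ± 17.8 TPM with its receptor kinases Axl at 137 ± 2.94, Mertk at 36.8 ± 2.36 and Tyro3 at 1.01 ± 0.116. The inhibitory receptor Sirpa, which reads CD47 on other cells, was at 1405 ± 8.94 TPM and Cd47 itself at 185 ± 5.66. Lilrb4b and Lilrb4a were at 715 ± 17.2 and 535 ± 18.3 TPM, near-identical genes whose reads may be divided between them, and the sialic acid receptor Siglec1 was at 669 ± 50.6.

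Integrins and chemoattractant receptors were used selectively, with medians of 1.94 and 2.03 TPM over 26 genes each. Itgb2 and Itgb1, the beta chains of leukocyte and matrix integrins, were at 671 ± 9.26 and 612 ± 12.1 TPM and did not overlap. The alpha chain of complement receptor 3, Itgam, was at 176 ± 1.56, Itga5 at 106 ± 1.22, Itgal at 11.4 ± 0.537 and Itgax at 8.15 ± 0.501 TPM. The anaphylatoxin receptors C5ar1 and C3ar1 were at 889 ± 5.19 and 872 ± 11.2 TPM, and, lower in the list, Ccr2 was at 180 ± 3.68 and Cxcr4 at 49.7 ± 3.56. Ccr8 had no read and Ccr7, which guides dendritic cells to lymph nodes, was at 0.216 ± 0.0106 TPM. The C-type lectins were led by Clec4d at 495 ± 14.5 and the mannose receptor Mrc1 at 403, 492 and 420 TPM, which overlapped, while the glucan receptor Clec7a was at 23.0 ± 2.25.

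**Figure D4:**
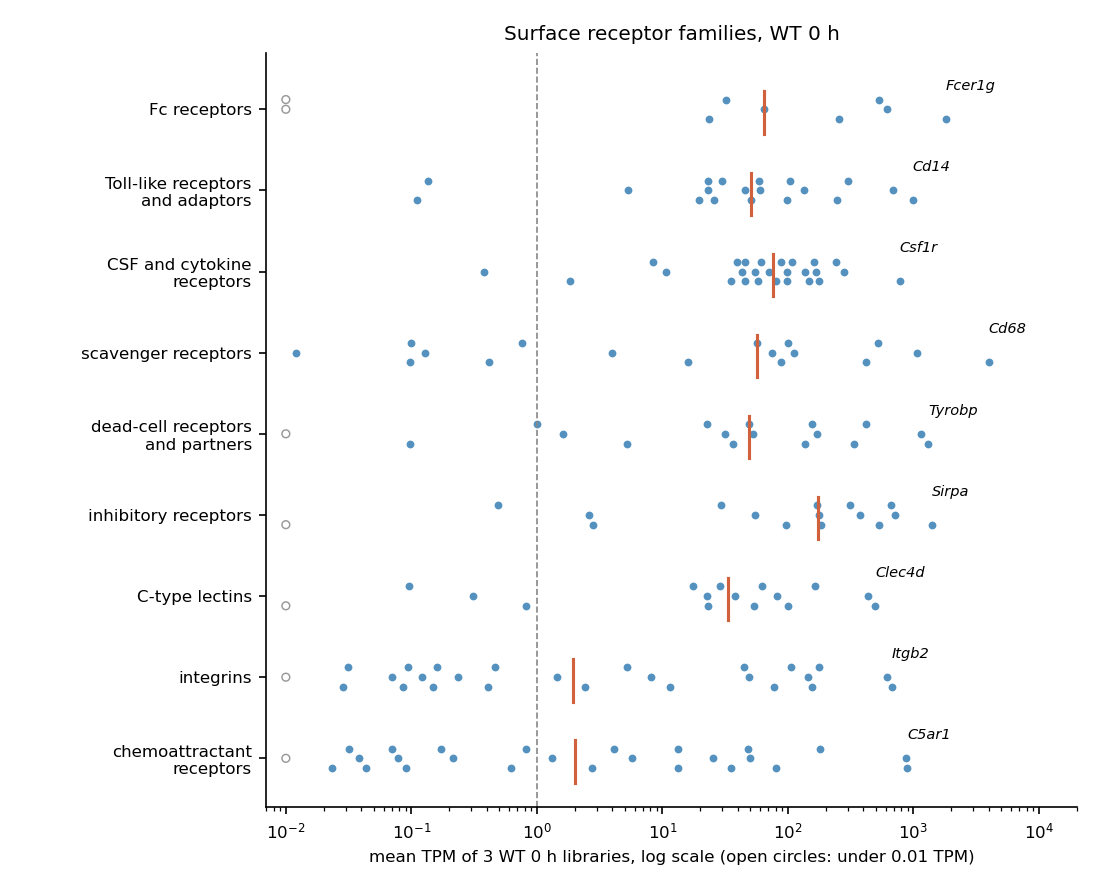
Mean TPM at WT 0 h (log scale) of each gene in 9 lists of surface receptors and their partners; orange bars mark list medians, open circles are genes under 0.01 TPM, and the highest gene of each list is named. Integrins and chemoattractant receptors have medians near 2 TPM, and the other lists have medians from 33.3 to 174 TPM.

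In the lists of complement genes, chemokines and cytokines, some members stood far above the list medians of 2.70, 13.9 and 0.602 TPM. Other secreted proteins, such as the galectins above, are outside these lists, and secretion itself was not measured. Beside Spp1 and Grn, the complement genes C1qb, C1qc (1671 ± 30.8 TPM), C1qa (1478 ± 81.6) and properdin Cfp (1131 ± 42.6) were at 1000 TPM or more in every library, whereas C3 was at 75.6 ± 5.53 and the terminal components C6 and C9 had no read. The monocyte chemokines Ccl2 and Ccl7 were at 1198, 1399 and 1286 TPM and at 949, 1241 and 1073 TPM, library 2 being the highest for both. Ccl9 was at 950 ± 21.8, Ccl6 at 571 ± 20.3, Ccl3 at 514 ± 7.69 and Ccl4 at 451 ± 13.7 TPM. Ccl17, Ccl24 and Cxcl13 had no read. Of 30 cytokines and growth factors, 14 were at 1 TPM or more in all libraries: Mif was at 580 ± 28.0, Tgfb1 at 264 ± 3.34, Tnf at 60.3 ± 2.70, Csf1 itself at 57.3 ± 9.39 and Il10 at 4.95 ± 0.979 TPM. Il1b, Il6 and Il12b were at 0.410, 0.194 and 0.149 TPM, and Il12a, Ifng, Il13, Il17a, Csf2 and Csf3 had no read.

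Genes used to grade macrophage activation were mixed. Mrc1, Irf5 (282 ± 10.4 TPM), Chil3 (59.7 ± 7.73) and Clec10a (53.5 ± 4.12) were the highest of 18, and 8 of 18 were at 1 TPM or more in every library. Nos2, the inducible nitric oxide synthase of classical activation, had 6, 2 and 5 reads, and Arg1, the arginase of alternative activation, had 2, 6 and 0 reads. Retnla, another alternative activation gene, had no read, which allows up to 0.355 TPM. Of the phagocyte oxidase, Cyba was at 1415 ± 17.7 TPM, the catalytic subunit Cybb at 398 ± 7.01, Ncf1 at 370 ± 14.3 and Ncf4 at 143 ± 6.66, while Nox3, Nox4, Duox1 and Duox2 had no read.

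Genes of lipid, iron and sugar metabolism had both very high and silent members. Apoe was at 1305 ± 17.6 TPM, the lipid droplet coat Plin2 at 1274 ± 23.9, lysosomal acid lipase Lipa at 805 ± 7.37, lipoprotein lipase Lpl at 726 ± 28.0 and the cholesterol exporters Abcg1 and Abca1 at 108 ± 5.84 and 68.2 ± 4.26; Apob, Apoa1 and Fabp1 had no read. Heme oxygenase Hmox1 was at 711 ± 19.3 TPM, the phagosomal metal transporter Slc11a1 at 324 ± 5.94 and the iron exporter Slc40a1 at 51.7 ± 1.94, and the iron hormone gene Hamp had no read. In glycolysis the muscle and ubiquitous isoforms Pkm (2094 ± 116 TPM), Aldoa (1635 ± 56.5) and Pgk1 (1135 ± 44.5) were abundant, and the liver or testis isoforms Pklr, Pgk2, Gapdhs and Ldhc had no read, nor had the glucose transporter Slc2a2. The myeloid hexokinase Hk3 was at 547 ± 7.89 TPM, above Hk1 at 99.7 ± 2.75 and Hk2 at 50.5 ± 3.43. All 20 cell cycle genes were at 10 TPM or more in every library, among them Mki67 at 165 ± 19.2 and Top2a at 117 ± 9.11 TPM.

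Dusp10, which encodes MKP5, the phosphatase of stress-activated MAP kinases that the study deletes, was a low gene in resting WT cells. It had 41, 48 and 44 reads at WT 0 h, or 3.10 ± 0.10 TPM. The WT 24 h libraries had 43, 38 and 40 reads and the libraries labelled MKP5-/- had 4, 6 and 4, below every WT library. Among the dual-specificity phosphatases, Dusp6, Dusp3 and Dusp7 were the highest at 175 ± 7.66, 174 ± 5.63 and 164 ± 7.94 TPM, not separated by their spread, and Dusp1 was at 62.1 ± 2.86. Of the kinases they act on, Mapk3 was at 269 ± 6.40, the p38 kinase Mapk14 at 140 ± 7.33 and the JNK kinases Mapk9 and Mapk8 at 37.9 ± 0.377 and 6.43 ± 0.553 TPM.

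No read in any of the 3 libraries was found for 33952 genes, and 6089 of these were protein-coding, which is 28.1% of the coding genes; a further 4672 coding genes had reads but were under 1 TPM in at least 1 library. Gene families, picked after the values were seen, differed widely in the share without a read. It was 96.0% of 1114 odorant receptors, 95.2% of 351 vomeronasal receptors and 97.6% of 42 beta-defensins, and all 14 interferon alpha genes, 26 prolactin genes and 22 major urinary protein genes. The odorant receptor Olfr56 was an exception at 12.4 ± 2.61 TPM. At the other end, 1 of 69 Rab GTPases, switches of vesicle traffic, had no read, with Rab7 of the late endosome the highest at 861 ± 3.97 TPM. Of 30 markers of distant tissues, 19 had no read, among them albumin, insulin Ins2, the pituitary hormone Gh and the protamines; the highest were myelin Mbp at 46.9 ± 2.84 and transthyretin Ttr at 43.9, 26.0 and 52.2 TPM.

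The libraries were close to each other, and closeness depended on level. Among genes at 1000 TPM or more the median SD over the 3 libraries was 0.042 on the deposited log2 scale, and it was 0.051 from 100 to 1000, 0.077 from 10 to 100 and 0.263 from 1 to 10 TPM. Each pair of libraries shared 97 or 98 of its 100 most abundant genes. The most variable genes of 20 TPM or more were Slco4a1, an organic anion transporter, at 46.1, 18.4 and 42.7 TPM, and Ms4a4a, a four-span membrane protein, at 17.2, 40.5 and 21.2. Library 2 was the lowest for the former and the highest for the latter. The next 3 were Gm10073, Gm10145 and ENSMUSG00000121066, each with 98 to 162 reads in all, where counting error is large.

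The ranking also held abundant pseudogenes. All 13 mitochondrial mRNAs stood at 0 reads throughout, while nuclear pseudogenes that resemble them were among the most abundant entries. Gm28661, identical to mt-Co2 over 681 bases, ranked 9 at 8514, 8021 and 8097 TPM. Gm28437 (identical to mt-Co3), Gm29216 (99.8% identical to mt-Co1 over 483 bases) and Gm10925 (identical to mt-Atp6) were at 6589 ± 89.2, 5881 ± 303 and 5288 ± 37.5 TPM. With Gm28438, Gm13340 and Gm13341 they made 7 pseudogenes that held 2.69% ± 0.0650 of all TPM. Where a copy is identical to a mitochondrial gene, their reads cannot be told apart by sequence, and how such reads were assigned is not given in the sources used here. Of 25 pseudogenes at 100 TPM or more, 23 had a coding transcript at least 95% identical to them. Rn18s-rs5, a locus of ribosomal RNA sequence, was at 1693, 2424 and 1991 TPM, with the largest SD on the log2 scale among the 100 most abundant entries (0.288).

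Against the WT cells given ox-LDL for 24 h, 81 of the 100 most abundant genes were called. Of 14710 genes tested, 55.4% were called at an adjusted p under 0.05 in limma, 27.4% higher and 28% lower at 24 h, and in 64.4% the 0 h and 24 h libraries did not overlap in TPM. Of the 100 most abundant genes at 0 h, 32 were higher, 49 lower and 19 had no call, and 81 were again among the 100 most abundant at 24 h. Their median log2 change was -0.14, against 0.00 over all tested genes. They were chosen for their level at 0 h, the baseline of the comparison, and that choice by itself favours falls. At 1000 TPM or more the median SD between the 0 h libraries was 0.042 on the log2 scale. It was 0.051 from 100 to 1000, 0.077 from 10 to 100 and 0.263 from 1 to 10 TPM. Whether this spread bears on the share called was not tested. Among these 100, the largest falls on the log2 scale were those of Ccl7 and Ccl2. Ccl2 went from 1198 to 1399 TPM to 8.63, 6.25 and 11.7 TPM (log2 change -7.24, SE 0.407, adjusted p = 1.33e-07) and Ccl7 from 949 to 1241 TPM to 1.75, 4.67 and 3.07 TPM (-8.48, SE 0.542, 3.37e-07). Spp1 fell to 2350, 2173 and 2240 TPM (-2.26, SE 0.099, 2.38e-08), and so passed from rank 3 to rank 37. Ifitm3 fell to 1092, 1065 and 1151 TPM (-2.32, SE 0.056, 3.00e-10) and Bst2 to 517, 518 and 464 (-2.24, SE 0.067, 1.29e-09). The 0 h and 24 h libraries of these 5 genes did not overlap, as in the 64.4% of all tested genes above.

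The largest rises among the 100 most abundant genes were those of Apoe and Lyz2. Apoe, a carrier of lipoprotein lipids, rose to 6648, 5907 and 8886 TPM (log2 change 2.42, SE 0.141, limma adjusted p = 1.80e-07). Lyz2 rose to 32286, 31502 and 36516 TPM (1.84, SE 0.070, 7.47e-09), above Ftl1 at 27673 ± 542 TPM. Lyz2 was thus the most abundant gene with counted reads at 24 h. Tmsb4x, Cd36 and Itm2b rose by 0.92, 0.86 and 0.82 (SE 0.043, 0.091 and 0.076). Csf1r rose to 2282 ± 187 TPM (1.53, SE 0.069, 1.81e-08) and Adgre1 to 2376 ± 80.3 TPM (1.32, SE 0.056, 1.09e-08), while Cd68 fell to 2704 ± 84.4 TPM (-0.57, SE 0.044, 8.56e-07). The 4 markers were thus all called, 3 higher and 1 lower, against 55.4% of all tested genes called. Dusp10 was at 2.49 ± 0.295 TPM at 24 h and had no call (adjusted p = 0.304).

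**Figure D5:**
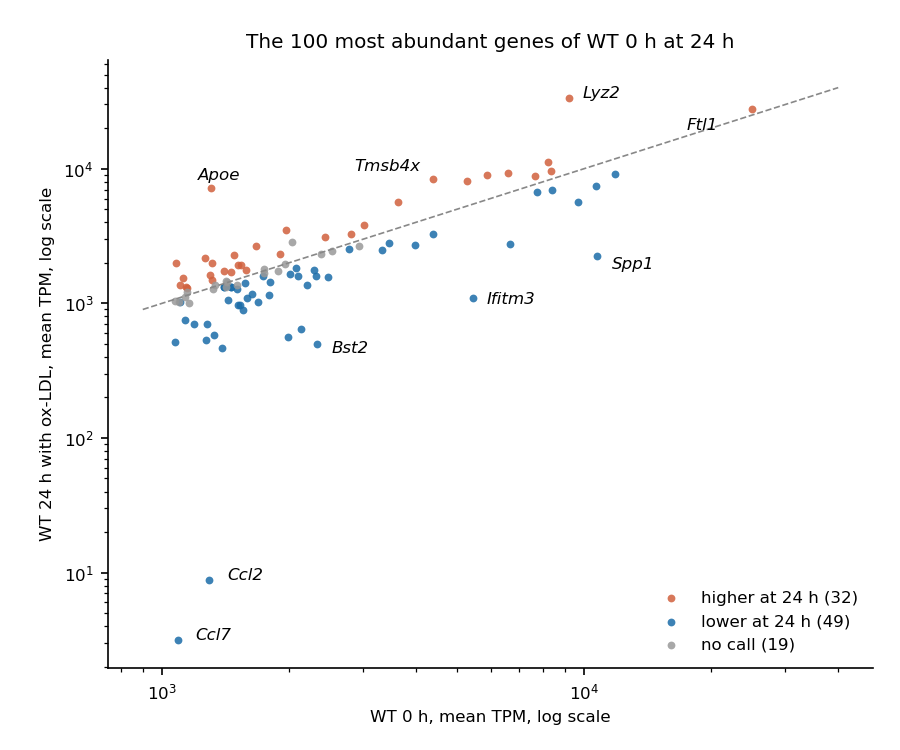
Mean TPM of the 100 most abundant genes of WT 0 h (horizontal, log scale) against their mean TPM at WT 24 h with ox-LDL (vertical, log scale), coloured by the limma call; the dashed line marks equal levels. Lyz2 and Apoe lie above the line, and Ccl2 at 8.87 and Ccl7 at 3.16 TPM lie far below it.

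Of the 20 macrophage markers, 13 were higher and 6 lower at 24 h, where 27.4% of all tested genes were higher and 28% lower. Mertk rose to 149 ± 12.3 TPM (2.00, SE 0.095, 2.54e-08). Itgax, listed with the integrins and dendritic cell markers, rose to 94.3 ± 16.2 TPM (3.50, SE 0.095, 7.46e-10). Ccr2 fell to 22.9, 19.5 and 22.8 TPM (-3.07, SE 0.074, 3.00e-10) and Siglec1 to 89.8, 90.2 and 111 TPM (-2.81, SE 0.10, 5.41e-09). Of 25 tested receptors for colony-stimulating factors and cytokines 18 were higher and 2 lower, and of 10 tested neutrophil markers 2 were higher and 8 lower, against the same 27.4% and 28% of all tested genes. S100a9 was at 1.152 TPM in library 1 and without a read in the others at 24 h, Ngp was at 0.287 TPM or less, and Ly6a was at 30.9, 25.3 and 25.3 TPM (-5.03, SE 0.165, 4.10e-09). Summed over their list, the neutrophil markers were at 94.6 to 99.4 TPM at 24 h against 514 to 547 TPM at 0 h, with Elane, Camp, Retnlg and Ly6g at 0. The 2 that rose made up most of that remainder: the receptor Csf3r was at 57.1, 48.7 and 57.9 TPM at 24 h (0.61, SE 0.089, adjusted p = 0.000133) and the collagenase Mmp8 at 38.8, 43.6 and 38.6 TPM (1.33, SE 0.137, 9.02e-06). Fibroblast and stromal markers were at 90.8 to 118 TPM at 24 h against 9.84 to 13.8 TPM at 0 h. Of their 10 tested members 8 were higher, against 27.4% of all tested genes, among them Col1a1 at 26.9, 20.7 and 19.5 TPM. The read filter needed only 3 of the 9 libraries, so stromal markers near the floor at 0 h could enter through 24 h libraries alone. Neutrophil markers near the floor at 24 h could likewise enter through 0 h libraries alone. Both counts of calls carry that choice and are no test of the lists. The part of other cells in the 24 h changes was not tested.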

How the data were processed

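RNA sequencing was read from 9 libraries, 3 each of WT at 0 h, WT at 24 h with ox-LDL and MKP5-/- at 24 h with ox-LDL. Per the submitters' processing notes, STAR and GRCm39 were used, with 1 table per library. The deposited values are log2 normalized counts with a TMM factor per library, per the file headers. The values follow log2 of reads plus 0.5 divided by exon length and by the scaled library size. How reads were counted, with what annotation and whether by strand, is not given in the sources used here, so antisense, overlapping and near-identical genes are uncertain. With exon lengths from GENCODE M21, used for names, biotypes and lengths only, 96.4% of 46021 testable genes came out as whole reads in all libraries, within 0.05 reads. Of 56775 IDs, 4794 matched no symbol, and 85 had no length and no recovered reads. TPM was computed here after taking off the added 0.5 reads.

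Depth was 15664606 to 17118744 reads at WT 0 h and 11078101 to 19768529 over all 9 libraries. A gene with no read was given an upper limit of 3 reads over the 3 libraries, which covers counting error only. Levels at 0 h are described with no test. The 24 h comparison used limma 3.58.1 in R 4.3.3 on the deposited log2 values of all 9 libraries and 3 groups, with trend and robust options, over 14710 genes that reached 10 reads, at median depth, in 3 libraries and 15 reads in all, and Benjamini-Hochberg adjustment at 0.05. The fit was tested on simulated data with the same spread setting for every gene and few changed genes, unlike these data. That simulation therefore does not check the calls made here. The p-values measure the spread between libraries, which may be technical, as separate mice are not stated.

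Promoters came from RefSeq on GRCm38.p6, and transcripts were aligned with blastn 2.17.0. The rule for named genes gave the 4 markers, Dusp10, the 30 most abundant named coding genes, up to 6 leading members and the members without reads of each list, the 5 most variable genes at 20 TPM or more, and the 5 largest rises and falls at 24 h among the 100 most abundant; not every gene it gave is printed. Other genes in the text were named after their values were seen. The members and all 38 lists were chosen with earlier results of these data known. Alternatives covered the gene set, length, added reads, thresholds, scaling, filter, variance model, replicate block and each library left out.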

Additional observations from a re-analysis of the deposited data

How the results depend on the processing

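Counts were held to 1.5 times the reported count and shares of TPM to 1 SD over the libraries, and 12 alternative values of the summary results passed these limits. Within them, 15363 genes were at 1 TPM or more with the added 0.5 reads kept, 2318 reached 100 by reads without length, and 72 of the 100 most abundant were shared with 24 h by that ranking. Restricted to protein-coding genes, 6089 genes had no reads. The share of TPM held by the 10 most abundant genes was 11.629% over coding genes only, 10.842% with the added 0.5 reads kept, 7.387% by reads without length, 9.891% with the principal transcript length and 11.229% without the 7 mitochondrial-like pseudogenes. For the 100 most abundant these shares were 29.284%, 29.463%, 21.031%, 28.156% and 28.429%. By reads without length, 59 of the 100 most abundant genes were the same. The principal length and the removal of the 7 pseudogenes were chosen after seeing the data. Under the principal length Ahnak took rank 6, because its principal transcript has 830 of 19938 exon bases.

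Leaving out 1 library at a time gave 13094 to 13130 genes at 1 TPM or more in the rest, 1798 to 1810 at 100 TPM, 108 to 109 at 1000 TPM, 35009 to 35038 without reads, top shares of 10.924% to 11.049% and 29.793% to 29.91%, and 80 to 82 of the 100 most abundant shared with 24 h. The 24 h calls ran from 3586 to 4156 higher and from 3713 to 4254 lower. Upper-quartile scaling gave 4508 higher and 3934 lower. Without the trend and robust options Ftl1 (adjusted p = 0.0782) and Ctsd (0.0679) lost their limma calls, and Ctsd also without WT 0 h replicate 1 (0.0625); the cause was not tested.

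With the replicate number as a block, 4069 genes were higher and 4118 lower. After each gene's group mean was taken off, the remaining deviations of same-numbered WT 0 h and WT 24 h libraries correlated at 0.024, 0.02 and -0.02. The numbers were therefore not taken as pairs. From 1 to 10 TPM the median SD was 0.263 on the log2 scale.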
